A study of Homo sapiens with 2 samples.

Results

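Wide anchors are the autosomal regions of at least 10 kb to which the H3K27ac HiChIP counts of HCT116 cells were assigned. They were chosen by width alone, as the end of the anchor minus its start, and numbered 4254 of the 247256 autosomal anchors, or 1.72%. All anchors of the series numbered 250223. HCT116 is an established human colorectal carcinoma line, grown here without a treatment, and the data comprised 2 replicates of 1 condition. The labels number the replicates but do not say whether they came from separate cultures. The deposited tables held 1885481 counts for replicate 1 and 2131466 for replicate 2.

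In HiChIP, chromatin is cut with a restriction enzyme, ends that lie near each other in the nucleus are ligated, and the ligated DNA is immunoprecipitated. With an antibody to H3K27ac, an acetylated histone mark of active enhancers and promoters, the read pairs are enriched for contacts that involve such chromatin. Reads are then assigned to regions, called anchors. A pair with its ends in different anchors is counted for a loop, and a pair with both ends in the same anchor is counted for that anchor itself. Clusters of neighbouring active elements, often called super enhancers, can extend over many kilobases, as a wide anchor does. The width of an anchor alone does not say whether it is such a cluster.

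MboI, the enzyme used here, cuts at GATC, and the edges of the anchors lay at these sites. All 250222 anchors of the nuclear chromosomes ended at a GATC of the hg19 sequence, and 250221 of them started at one. The exception started at the first base of chromosome 5. Both edges are shown for 2 wide anchors that are described below, with GATC in capitals. The anchors are that of PPP6R1 (chr19:55742876-55778757) and that of PCDH7 with the most counts per kb (chr4:30854823-30870746). The sequences are of the plus strand of hg19, and each anchor begins at the second letter of the left site and ends at the first letter of the right site.

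PPP6R1 left edge: GATCtcagctgcagctcccagcaagctcgg
PPP6R1 right edge: ttggtctcaagctcctgacctaaagtGATC
PCDH7 left edge: GATCcatccctcttaactgtgtgaccttgt
PCDH7 right edge: agttccagggtggcagctaatccactGATC

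The cutting sites were sparser inside wide anchors. They held 1.96 MboI sites per kb, compared with 2.62 per kb in anchors under 10 kb and 2.49 per kb of the autosomes. A wide anchor nevertheless spanned many fragments, with a median of 24 and quartiles of 20 and 28. The longest fragment of a wide anchor had a median of 2305 bp, and only 22 of the 4254 wide anchors had a fragment that took up over 50% of their width (46702 of the 243002 anchors under 10 kb). The widths were therefore made up of many fragments in nearly all wide anchors.

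The median width of the wide anchors was 11880.5 bp, with quartiles of 10795.5 and 13745.75 bp. Most of them were close to the limit, since 59.9% were of 10 to 12.5 kb. Only 90 were of 20 kb or more (81 of 20 to 30 kb and 9 above). The anchors under 10 kb had a median width of 2515 bp. Wide anchors covered 54.0 Mb, which was 6.73% of the autosomal bases in anchors. The anchors just inside the limit resembled those just outside it. The 713 anchors of 10 to 10.5 kb had 0.441 and 0.467 same-anchor counts per kb in replicates 1 and 2, and the 955 anchors of 9.5 to 10 kb had 0.466 and 0.484.

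The widest anchor (chr7:50369626-50422997) lay in an intron of IKZF1, which encodes a lymphoid transcription factor, and 40000 of its 53372 bp were unknown bases of the assembly. It held 6 and 8 same-anchor counts in replicates 1 and 2. The anchor in HIPK2, which encodes a protein kinase, and that nearest to APOB, which encodes an apolipoprotein, were also among the 10 widest and had 25000 unknown bases each. In all, 6 wide anchors held unknown bases, so the assembly added to the width of few of them. The widest anchor without unknown bases covered 35.9 kb and held the transcription start site (TSS) of PPP6R1, a regulatory subunit of protein phosphatase 6, and part of HSPBP1, which encodes a cochaperone. It held 38 and 36 same-anchor counts. The others among the 10 widest lay in RASA3, MBNL1, PCDH7, ZC3H3, CBLB and the neighbouring genes SEPTIN5 and GP1BB. Their summed same-anchor counts per kb ranged from 0.675 in MBNL1, a regulator of splicing, to 4.84 in PCDH7, which encodes a protocadherin of the cell surface. Width and the same-anchor count per kb had a Pearson correlation of 0.13 across the 4254 anchors, which share the libraries and are not independent replicates.

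Wide anchors were found on all autosomes. Their share of the anchors was highest on chromosome 4 (2.24%) and lowest on chromosome 19 (0.680%). Chromosome 4 had the lowest median GC content of its anchors of all autosomes (37.8%) and chromosome 19 the highest (50.7%). The median GC content was 39.2% in wide anchors and 40.9% in anchors under 10 kb. The share of the surrounding 100 kb that was covered by anchors had a median of 39.9% around wide anchors and 36.7% around the others.

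**Figure D1:**
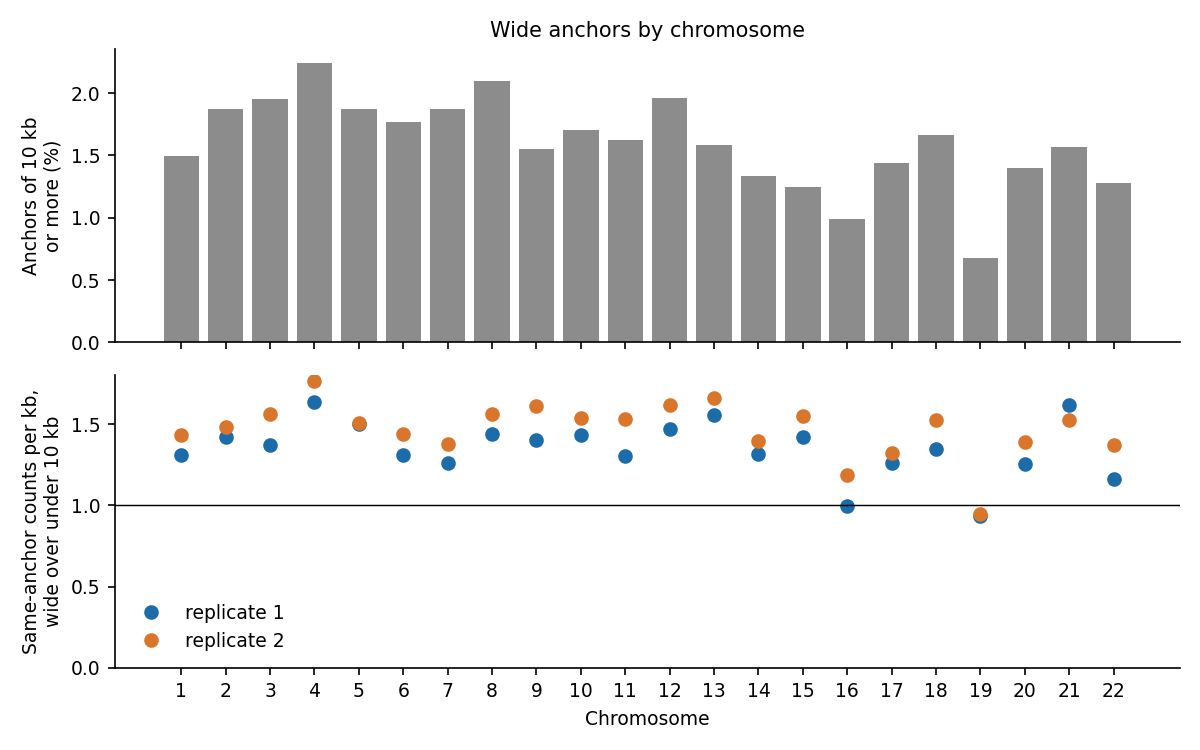
Share of the anchors of each autosome that were of 10 kb or more (upper panel, percent) and the ratio of same-anchor counts per kb, wide anchors over anchors under 10 kb, in replicates 1 and 2 (lower panel). Chromosome 4 had the highest share (2.24%) and chromosome 19 the lowest (0.680%), and the ratio was under 1 in both replicates on chromosome 19 only.

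With respect to genes, 417 wide anchors (9.80%, 95% confidence interval 8.93 to 10.7%) held the TSS of a protein-coding gene, compared with 4.38% of the anchors under 10 kb (4.30 to 4.46%). These intervals are over the anchors of a fixed set, which are not replicates. Per Mb of anchor the order was the opposite, with 8.85 TSSs in wide anchors and 16.0 in the others. Exonic sequence without a TSS was present in 24.9% of wide anchors and 14.2% of the others. Intronic sequence alone was found in 18.8% and 29.6%, and 29.5% and 36.8% were intergenic. A further 16.9% and 15.1% overlapped lncRNA genes alone. A wider region can overlap more annotated features by its width alone, and the shares of bases differed less. Protein-coding transcripts covered 47.5% of the bases of wide anchors, 45.6% of those of other anchors and 41.0% of the autosomes. Their exons covered 3.28%, 3.03% and 2.52%.

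Of 18978 protein-coding genes, 478 had their TSS in a wide anchor (2.52%), and 65.7% had it in an anchor of any width. Of the wide anchors with a TSS, 365 held 1, 45 held 2, 5 held 3 and 2 held 4. RNF208, CYSRT1, RNF224 and SLC34A3, the last of which encodes a phosphate transporter of the kidney, shared an anchor of chromosome 9 (chr9:140115450-140129069) with 19 and 14 same-anchor counts. ACD, which encodes a shelterin protein of the telomere, shared another on chromosome 16 (chr16:67689285-67701143) with PARD6A, a cell polarity gene, ENKD1 and C16orf86, and it had 12 and 14 counts. A loop of these anchors cannot be assigned to one of their genes. The 7 wide anchors with at least 3 TSSs had 0.662 to 2.42 summed same-anchor counts per kb, which is within the range of the whole class and below its highest values.

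Among the lists of genes of interest in this cell line, 5 of 39 HOX genes had their TSS in a wide anchor. HOXA9 and HOXA10, developmental transcription factors, shared an anchor with 25 and 31 same-anchor counts, and HOXD3 and HOXD4 shared one with 6 and 5. The anchor of HOXD8 had 1 count in each replicate. The intestinal transcription factors had 3 of 25, namely TCF7L2, FOXA1 and SOX9. TCF7L2, the DNA-binding partner of β-catenin, had 28 and 31 counts in 15.1 kb. SOX9, a factor of the intestinal crypt, had 8 and 5, and FOXA1, a pioneer factor, had 2 in each replicate. The targets of WNT signalling had 2 of 20, SOX9 and EPHB2, a receptor tyrosine kinase, whose anchor had 3 and 10 counts. FOSL2 was the only 1 of 14 AP-1 genes, with 10 and 17 counts. FOXA1 was the only 1 of 7 oncogenes known for super enhancers, and TNNI2, a muscle troponin, was the only 1 of 12 muscle markers, with 5 and 8 counts. No TSS of 19 RAS-ERK feedback genes, 19 p53 targets (20 were listed and 19 were found in the annotation), 13 neuronal, 13 lymphoid or 13 hepatocyte markers lay in a wide anchor. The lists are small, and most of their counts are of 0 or 1 gene, so no list was read as standing apart from the 2.52% of all genes.

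The same-anchor counts per kb were higher in wide anchors. In replicate 1, wide anchors held 26680 such counts, or 0.494 per kb, compared with 0.365 per kb in anchors under 10 kb. In replicate 2 they held 28748, or 0.532 per kb, compared with 0.362. The ratio was 1.35 (95% confidence interval 1.34 to 1.37) in replicate 1 and 1.47 (1.45 to 1.49) in replicate 2, with a mean of 1.41 ± 0.082 (SD, n = 2). The intervals cover counting error only, and an exact permutation test over 2 replicates cannot pass the usual threshold, so no p-value is given. Wide anchors held 8.89% and 9.58% of all autosomal same-anchor counts. At least 1 count was present in 97.6% and 97.9% of wide anchors, compared with 50.3% and 49.0% of the others, and 12 wide anchors had none in either replicate. These shares are not per kb, and a wider anchor has more room for a count. Below the limit the share already rose with width, from 33.7% and 31.2% under 2 kb to 92.1% and 92.7% at 7.5 to 10 kb. The median wide anchor had 5 counts in each replicate, and the highest had 113 and 159. On 20 of 22 autosomes the rate was higher in wide anchors in both replicates. On chromosome 19 it was lower in both, with ratios of 0.933 and 0.948 over 32 wide anchors.

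The same-anchor rate increased with width on both sides of the limit. It was 0.285 and 0.258 per kb in anchors under 2 kb, 0.438 and 0.459 at 7.5 to 10 kb, 0.452 and 0.484 at 10 to 12.5 kb, and 0.653 and 0.778 in the 90 anchors of 20 kb or more. There was no step at 10 kb. A same-anchor count needs both ends of a pair in the anchor, so wider anchors also admit pairs of longer distance. To compare equal lengths, neighbouring anchors under 10 kb were joined into 90151 runs with an outer span of 10 to 20 kb, and all counts within a run were taken per kb of its anchors. This comparison was added after the data had been seen. The runs had 0.539 and 0.557 counts per covered kb, above the 0.487 and 0.522 of wide anchors of the same span. The ratio, wide over runs, was thus 0.904 (0.893 to 0.916) and 0.938 (0.926 to 0.950), and the direction was reversed. Anchors covered 53.3% of the span of a run. Per kb of span the runs had 0.287 and 0.297 counts, and the ratio was 1.70 and 1.76. The gaps between anchors cannot hold a count, so this ratio is raised by construction and does not bear on the reversal. At a span of 15 to 20 kb the ratio per covered kb was above 1, at 1.02 (0.996 to 1.05) and 1.07 (1.04 to 1.09).

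**Figure D2:**
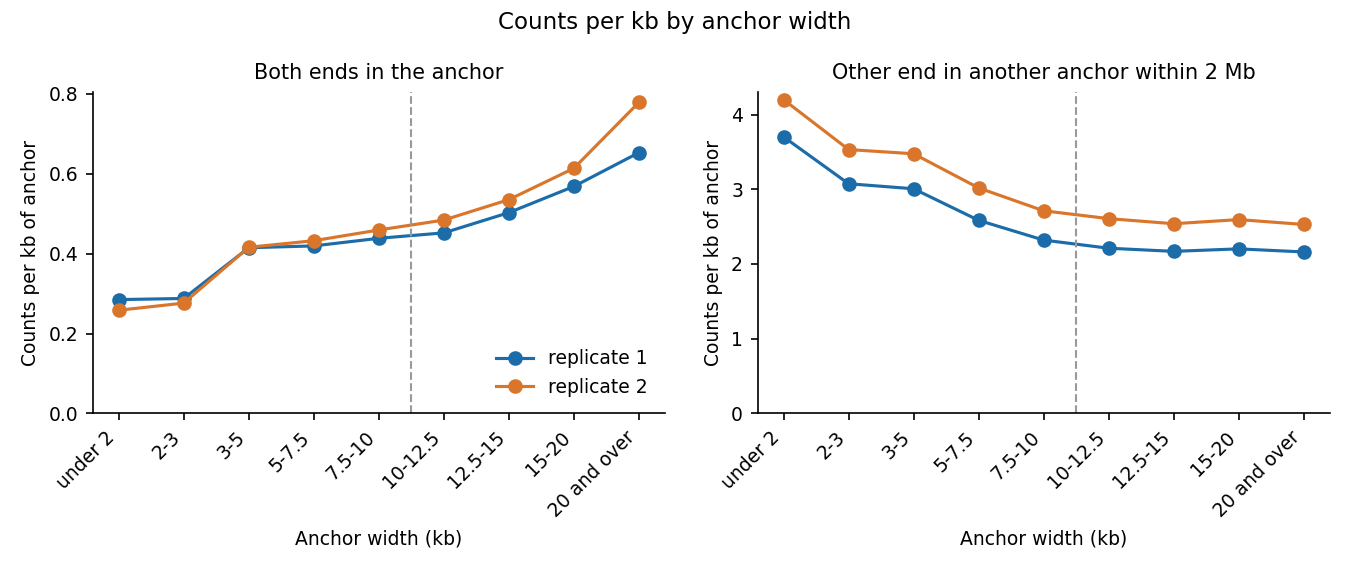
Counts per kb of anchor in 9 classes of anchor width, for pairs with both ends in the anchor (left) and for pairs with the other end in another anchor within 2 Mb (right), in replicates 1 and 2. The dashed line marks 10 kb. The same-anchor rate increases with width from 0.285 and 0.258 to 0.653 and 0.778 without a step at the line, and the rate to other anchors falls from 3.70 and 4.20 to 2.16 and 2.53.

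The wide anchors differed widely among themselves. The summed same-anchor counts of both replicates had a median of 0.808 per kb, with quartiles of 0.565 and 1.14 and a highest value of 11.5. The 425 anchors with the most summed same-anchor counts, not divided by width, held 30.9% of all same-anchor counts of wide anchors. The variance of the counts over anchors was 6.65 and 8.87 times the mean. The rates of both replicates had a Pearson correlation of 0.81 and a Spearman correlation of 0.50 over the 4254 anchors, which are not independent replicates. For the 2299 anchors with a summed count of at least 10, the split of counts between replicates had a chi-square of 1.01 per degree of freedom, which is close to sampling noise.

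**Figure D3:**
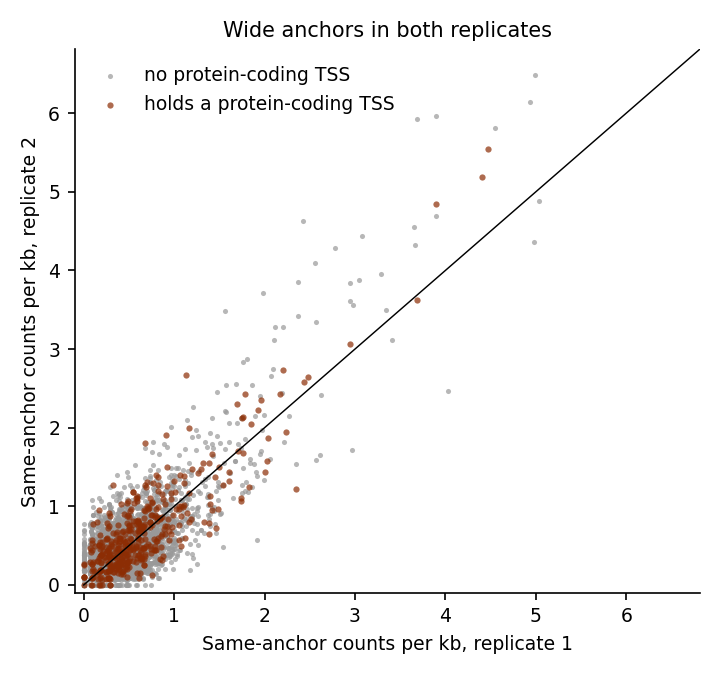
Same-anchor counts per kb of each of the 4254 wide anchors in replicate 1 (horizontal axis) and replicate 2 (vertical axis), with anchors that hold a protein-coding TSS in brown and a line of equal values. Most anchors lie near the origin, and the anchors with high rates are high in both replicates (Pearson r = 0.81).

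Wide anchors were ordered by the summed same-anchor rate into 10 classes of 425 or 426. The highest class had a median GC content of 45.2% and the lowest 37.1%. A protein-coding TSS was present in 23.2% of the highest class and 7.51% of the lowest. The share did not rise steadily, since the next highest class had 16.7% and all classes below it had 4.94% to 9.62%. The counts to other anchors within 2 Mb were 4.52 and 5.35 per kb in the highest class, compared with 1.63 and 1.91 in the lowest. Wide anchors with a TSS had 0.678 and 0.730 same-anchor counts per kb, above the 0.443 and 0.482 of intergenic wide anchors. The difference was present in both replicates. In anchors under 10 kb these rates were 0.717 and 0.767 with a TSS and 0.328 and 0.319 in intergenic sequence. Among anchors with a TSS, the rate was thus lower in wide anchors in both replicates, the opposite of the direction over all anchors.

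The 10 anchors with the highest summed same-anchor rates had 8.74 to 11.5 counts per kb. The highest was an anchor of 18.6 kb on chromosome 12 (chr12:76045044-76063691) with 93 and 121 same-anchor counts. It overlapped lncRNA genes only, and the nearest protein-coding TSS, that of KRR1, which encodes a factor of ribosome assembly, was 139.7 kb away. VTI1A, which encodes a SNARE protein of vesicle traffic, held the second, with 61 and 76 counts in 12.4 kb. BCL9L, which encodes a coactivator of β-catenin, held the fourth, which covered 25.3 kb with its TSS and had 113 and 140 counts. An anchor in lncRNA genes including MSRB3-AS1 had 97 and 94 counts, with the TSS of HMGA2, a chromatin architectural gene, 165.8 kb away. An intergenic anchor of 26.8 kb (chr9:21664319-21691157) had 99 and 159 counts, 111.5 kb from the TSS of MTAP, which encodes an enzyme of methionine salvage. The others lay in an intron of PCDH7 (62 and 95 counts), near PDP1, which encodes a mitochondrial phosphatase (47 and 60), in NSMCE2, which encodes a SUMO ligase (57 and 50), and at the TSSs of CCDC57 (45 and 53) and TNRC18 (41 and 51). Of these 10 anchors, 3 held a protein-coding TSS, compared with 9.80% of all wide anchors and 23.2% of the highest of the 10 classes above. Counts were not corrected for copy number, and chromosomes 8, 10 and 17 carry gains in this line. Of these anchors, those near PDP1 and in NSMCE2 lie on chromosome 8, that in VTI1A on 10 and that of CCDC57 on 17. The rest of them lie on other chromosomes. Among the listed genes above, TCF7L2 lies on chromosome 10 and SOX9 on 17. Whether the gains raise these counts was not tested.

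The GC content of these 10 anchors ranged from 35.3% in VTI1A to 63.0% at TNRC18. Windows of 300 bases are shown from 2 of them. The first window is that with the most TGANTCA, the core motif of AP-1 factors, in the anchor of chromosome 12 (chr12:76054547-76054846, plus strand), with the motif in capitals. TGANTCA reads the same on both strands. The anchor held 5 matches in its 18.6 kb, fewer per kb than wide anchors as a whole, and the window held 2 of them. This window was picked for its matches, so it cannot be set against the shares of centre windows, which were not. Of all windows of 300 bases at the centre of an anchor, 10.2% of those in wide anchors and 10.1% of those in other anchors held a match. Over whole anchors the motif had 0.343 matches per kb in wide anchors, 0.352 in the others and 0.336 in the autosomes.

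Window in the chromosome 12 anchor: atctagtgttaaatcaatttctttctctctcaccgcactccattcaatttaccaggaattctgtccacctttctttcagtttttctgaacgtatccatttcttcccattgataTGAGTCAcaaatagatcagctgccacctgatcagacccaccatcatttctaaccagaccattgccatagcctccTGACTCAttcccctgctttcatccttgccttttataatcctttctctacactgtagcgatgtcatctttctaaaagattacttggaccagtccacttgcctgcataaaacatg

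The other window is the centre of the PCDH7 anchor (chr4:30862634-30862933, plus strand), with CG in capitals. It had 3 CG and a GC content of 42.0%. The median was 24.5 CG in the 300 bases before the 478 TSSs in wide anchors, 21 before all protein-coding TSSs, of which 97.8% had at least 1, and 2 at the centre of the 801 wide anchors in introns. Over their whole length, wide and other anchors had 10.97 CG per kb each.

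PCDH7 anchor centre: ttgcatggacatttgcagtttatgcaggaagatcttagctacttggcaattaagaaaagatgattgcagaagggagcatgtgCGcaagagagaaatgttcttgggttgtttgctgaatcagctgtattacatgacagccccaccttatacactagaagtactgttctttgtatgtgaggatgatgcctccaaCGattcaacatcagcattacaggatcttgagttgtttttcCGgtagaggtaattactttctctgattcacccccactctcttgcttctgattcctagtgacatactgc

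To other anchors within 2 Mb, wide anchors had fewer counts per kb. The rates were 2.20 and 2.58 per kb in wide anchors and 3.003 and 3.46 in anchors under 10 kb. The ratio was 0.731 (0.727 to 0.736) in replicate 1 and 0.747 (0.743 to 0.751) in replicate 2, with a mean of 0.739 ± 0.011 (SD, n = 2). MboI sites were also sparser in wide anchors, at 1.96 per kb compared with 2.62 in the others. Whether this accounts for the lower rate was not tested. Not divided by width, the median was 24 and 28 counts to other anchors for a wide anchor and 8 and 9 for the others, and the lowest wide anchors had 4 and 6. The number of partners per kb was also lower, with ratios of 0.654 and 0.658. As a result, same-anchor counts made up 18.4% and 17.1% of the counts of wide anchors, compared with 10.8% and 9.48% for the others. The anchor in NSMCE2 had the highest rate to other anchors, 50.04 summed counts per kb, followed by the PCDH7 anchor with 48.7 and the VTI1A anchor with 45.1. The anchor of BCL9L, with a similar same-anchor rate to these, had 9.41. Same-anchor rates and rates to other anchors had a Pearson correlation of 0.78 across wide anchors.

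Among loops with a count of at least 5, wide anchors were frequent. Such strong loops numbered 5009 of all loops within 2 Mb in replicate 1 (0.494%) and 6875 in replicate 2 (0.596%). A wide end was present in 1148 (22.9%, 21.8 to 24.1%) and 1596 (23.2%, 22.2 to 24.2%) of them, compared with 8.78% and 8.82% of all loops. The share of strong loops was 0.417% and 0.502% when both ends were under 10 kb, 1.19% and 1.48% when 1 end was wide, and 4.77% in each replicate when both were. These counts are not per kb, and a wider end collects more of them. At least 1 strong loop was present at 17.3% and 23.3% of wide anchors, compared with 2.91% and 3.82% of the others. The partners under 10 kb of wide anchors in strong loops held a protein-coding TSS in 9.89% and 10.5%, less than the ends of strong loops between anchors under 10 kb (16.5% and 17.2%). Of all anchors under 10 kb, 4.38% held one. Those with a TSS had 4.18 and 4.92 counts per kb to other anchors, compared with 3.003 and 3.46 for all anchors under 10 kb. Whether the fixed minimum of 5 counts accounts for the difference was not tested. Strong loops of wide anchors were longer. Midpoints were at least 20 kb apart in 59.8% and 63.0% of those between wide anchors, 33.9% and 37.7% with 1 wide end and 12.3% and 14.4% with none. Midpoints of wide anchors cannot lie closer than 10 kb, which raises these distances by construction.

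When widths and distance were taken into account, pairs of wide anchors had fewer counts. In 30 distance classes, the counts of wide pairs were compared with those at the rate per square kb of pairs of anchors under 10 kb. The comparison did not take into account the density of MboI sites, which was 1.96 per kb in wide anchors and 2.62 in the others. Its part in the ratios that follow was not tested. Wide pairs had 4193 counts in replicate 1 where 6479 would be counted at that rate, and 5097 in replicate 2 where the number was 7518. The ratio was 0.647 (0.628 to 0.667) and 0.678 (0.659 to 0.697), with a mean of 0.66 ± 0.022 (SD, n = 2). With 1 wide end it was 0.761 and 0.772. In wider classes the ratio of wide pairs was under 1 in each, at 0.579 to 0.728 in replicate 1 and 0.630 to 0.753 in replicate 2. It was highest at 100 to 200 kb in both replicates. The lower rate of wide anchors per square kb was therefore present at all distances examined.

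**Figure D4:**
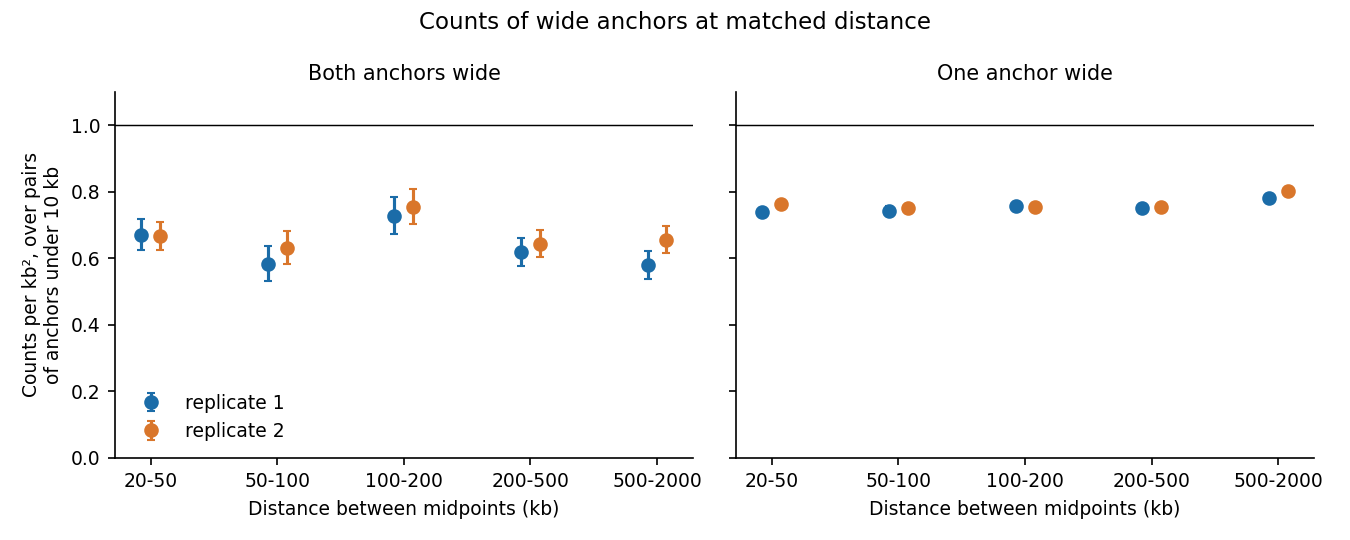
Ratio of counts per square kb in 5 distance classes for pairs of wide anchors (left) and pairs with 1 wide anchor (right), over pairs of anchors under 10 kb at the same distance, in replicates 1 and 2. Bars are exact 95% confidence intervals of counting error and are smaller than the points on the right. All points lie under 1, with wide pairs at 0.579 to 0.753.

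Loops between wide anchors numbered 4317 in either replicate and 1030 in both, and 337 reached 5 counts in sum. The strongest joined the chromosome 12 anchor described above to one 47.1 kb away (39 and 41 counts), also far from protein-coding genes. Next were neighbouring anchors in PDE4DIP, which encodes a protein of the Golgi and centrosome (39 and 35), and in PRKACB, which encodes a catalytic subunit of protein kinase A (21 and 27). PDE4DIP lies beside near-identical copies of itself, so its counts are uncertain. The loop of 2 PCDH7 anchors at a distance of 87.1 kb had 19 and 28 counts, and a loop near PDP1 had 23 and 24. Of these 5 loops, 2 joined anchors with nothing else between them, and the others passed over 2 to 9 anchors.

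Some further loops between wide anchors were chosen after their values were seen. A loop over 150.0 kb had 20 and 25 counts, and the nearest TSSs of its anchors were those of AREG and BTC, which encode ligands of the epidermal growth factor receptor. The intergenic anchor of chromosome 9 described above had 11 and 33 counts with another wide anchor 113.2 kb away, nearest to the interferon gene IFNE, so its replicates differed by more than those of the loops above. Neighbouring wide anchors near CAV2, which encodes a caveolin, had 16 and 25 counts, and those at SIK1, which encodes a salt-inducible kinase, had 18 and 20. Within PCDH7, further loops between wide anchors had 19 and 21 counts at 24.2 kb and 13 and 24 at 77.9 kb. Among the wide anchors with the highest rates to all others were one nearest to IRS1, which encodes an adaptor of the insulin receptor, with 170 and 195 counts, and one in an intron of PPP3CA, which encodes the catalytic subunit of calcineurin, with 155 and 219. The former was 143.2 kb from the IRS1 TSS.

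The 4 genes with the most wide anchors spanned 426 to 951 kb. NAALADL2 had 8 over 951 kb, beside 98 narrower anchors, and ARHGAP15, which encodes a GTPase-activating protein, MARCHF1, which encodes a ubiquitin ligase, and PCDH7 had 7 each. These genes were chosen for this number after it was known. The counts of the 4 genes differed. The wide anchors of PCDH7 had 280 and 337 same-anchor counts, or 2.42 and 2.92 per kb. Those of NAALADL2 had 34 and 38, or 0.309 and 0.345 per kb, those of ARHGAP15 35 in each replicate, and those of MARCHF1 30 and 32. Anchors under 10 kb were also higher in PCDH7, with 1.92 and 2.32 per kb, than in NAALADL2, with 0.238 and 0.201.

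Along PCDH7, the wide anchor 140.8 kb downstream of the TSS had the highest rate of the wide anchors, with 62 and 95 same-anchor counts in 15.9 kb, and that at 62.9 kb had 50 and 59 in 13.7 kb. The widest, of 32.4 kb at 227.9 kb, had 68 and 89. The anchor at 252.1 kb had 20 and 12, the fewest per kb in sum. Narrower anchors between them reached 5.23 and 7.71 counts per kb, above all wide anchors of the gene. The nearest wide anchor upstream of the gene (chr4:30429160-30447959) had 4 and 11.

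**Figure D5:**
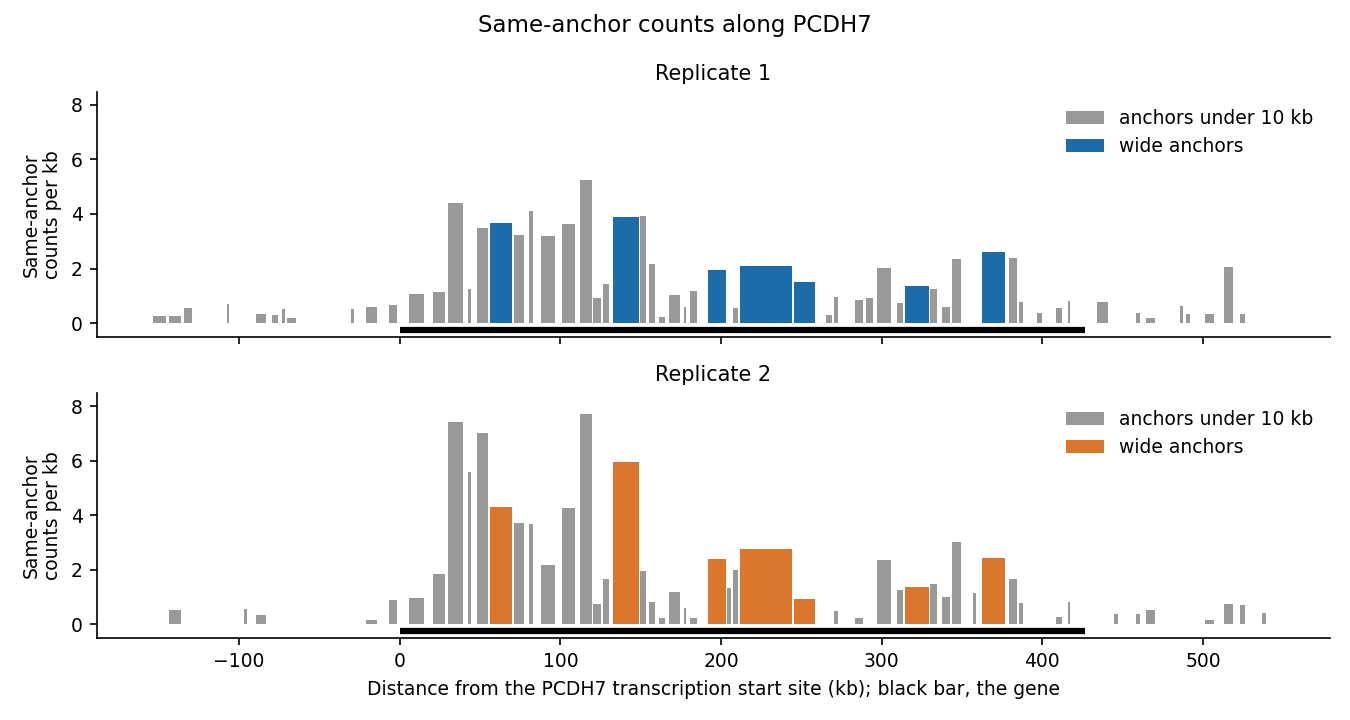
Same-anchor counts per kb along PCDH7 in replicate 1 (upper) and replicate 2 (lower), by distance of the anchor from the TSS in kb. Coloured bars are wide anchors, grey bars are anchors under 10 kb, bar widths are to scale, and the black line is the gene. The wide anchors of the gene reach 3.89 and 5.97 counts per kb, and the highest narrower anchor has 5.23 and 7.71.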

How the data were processed

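H3K27ac HiChIP was measured in 2 replicates of HCT116 cells. After MboI digestion, the authors processed the reads with HiC-Pro and hichipper, whose versions are not given in the sources used here, and deposited raw counts of read pairs for each pair of anchors of one chromosome, without normalization. The build is hg19 per the labels. How the anchors were made is not given in the sources used here.

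Anchors of both replicates were joined into 1 set. Autosomal anchors with end minus start of at least 10000 bp were called wide, and chromosome X and mitochondrial anchors entered no comparison. The members and gene lists were chosen with earlier results of these data known. A loop was any pair of distinct anchors whose midpoints lay within 2 Mb. Rates are counts divided by summed width. Intervals are exact 95% intervals, Clopper-Pearson for shares and conditional binomial for ratios of rates. Those of counts cover counting error only, since the tables hold no molecular identifiers. Those of shares of anchors or loops are over anchors or loops, which are not replicates. The rate functions were tested on simulated data. Genes are the canonical transcripts of GENCODE release 44 on GRCh37, and positions are counted from 1. Named anchors were the 10 widest, the 10 with the highest same-anchor rate, anchors with the most TSSs and the 5 strongest loops between wide anchors, plus genes of the lists with a TSS in a wide anchor. The alternatives were the width limit, distance range, minimum count, weighting, chromosomes 8, 10 and 17, which carry gains in this line, unknown bases, the TSS definition and each replicate left out. The tools were samtools 1.23.1, pysam 0.24.0, numba 0.67.0, scipy 1.17.1, pandas 2.3.3, numpy 2.4.6 and matplotlib 3.10.9, under Python 3.11.15. Some genes and sequences that the rules would name are not reported here.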

Additional observations from a re-analysis of the deposited data

Results flagged for a closer look

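Signal was present in data that no comparison above uses. The 5 wide anchors of chromosome X, of 2961 anchors there, held 17 and 24 same-anchor counts in replicates 1 and 2, above the limit of 3 that a count of 0 allows. Their rates were 0.320 and 0.452 per kb, compared with 0.285 and 0.296 in narrower anchors of that chromosome. Autosomal wide anchors held 41670 and 48802 counts to anchors over 2 Mb away, or 0.771 and 0.903 per kb, and the ratio to anchors under 10 kb was 0.771 and 0.778.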

How the results depend on the processing

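Of 45 recomputed values, 24 moved by less than the spread between replicates or, for the TSS share, lay within its interval over anchors. These 24 include all values with a replicate left out, which lie within that spread by construction and say nothing about stability. The same-anchor ratio of 1.41 was reversed to 0.921 per kb of anchor against runs of neighbouring anchors of the same span. Per kb of span it was 1.73, a value raised by construction because gaps between anchors cannot hold a count. Both were added after the data had been seen. The ratio was 1.66 with a width limit of 15 kb. With the median over anchors it was 3.20 in replicate 1 and had no value in replicate 2, where the median anchor under 10 kb had 0 counts. With limits of 8 and 15 kb, which change how many anchors are wide, the share of same-anchor counts was 16.2% and 2.43%, the share of anchors with a TSS 8.85% and 11.9%, the share of strong loops with a wide end 36.8% and 7.20%, and the ratio of wide pairs 0.636 and 0.826. The TSS share was 11.2% within 2.5 kb and 20.3% with all gene types. The ratio of counts to other anchors was 0.699 as a ratio of medians, 0.818 at 20 kb to 2 Mb and 0.656 with each loop once. The share of strong loops with a wide end was 12.8% at a minimum count of 2, 37.3% at 10, 46.2% at 20 kb to 2 Mb and 24.1% without chromosomes 8, 10 and 17. The ratio of wide pairs was 0.520 with distances between inner edges. With each replicate left out, the values ranged from 1.35 to 1.47 for the same-anchor ratio, 8.89% to 9.58% for the share of same-anchor counts, 0.731 to 0.747 for counts to other anchors, 22.9% to 23.2% for strong loops and 0.647 to 0.678 for wide pairs. Apart from the runs per kb of anchor, no ratio crossed 1 in these alternatives. No paired analysis between groups was possible because the series has 1 group, and wide and narrower anchors were compared within each replicate. Most wide anchors had few same-anchor counts, with a median of 5, so single anchors cannot be ranked beyond those with high counts.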
